A study of Mus musculus with 8 samples.

Results

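The nuclear genes of oxidative phosphorylation were followed through all 8 RNA-seq libraries of a study on CTCF, the zinc finger protein that organizes chromatin loops. Members were the table's genes whose names begin with Nduf, Sdha, Sdhb, Sdhc, Sdhd, Uqcr or Atp5, or with Cox followed by a number from 4 to 8 and a letter, and 92 of 18094 genes met that rule. By name, 38 belonged to complex I, 4 to complex II, 8 to complex III, 16 to complex IV and 16 to complex V. The remaining 10 were assembly factors (Ndufaf1 to Ndufaf7, Sdhaf1, Sdhaf2 and Atp5sl). Of these, Atp5sl has a complex V name but was placed by its function. No name was dropped as a predicted gene or pseudogene.

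The cells were the mouse embryonic stem cell (mESC) line E14Tg2A, either wild type (WT) or CTCF-K20R, in which CRISPR/Cas9 had changed lysine 20 of CTCF to arginine. At day 0 the mESCs of both genotypes grew on mitomycin C-inactivated embryonic fibroblast feeders with serum, leukemia inhibitory factor (LIF) and the 2i inhibitors CHIR99021 and PD0325901, and at day 4 they had become embryoid bodies (EBs) in hanging drops with serum and without LIF. Each genotype had 2 libraries per day, which the study's methods call biological replicates. Whether they came from separate clones, cultures or days is not given in the sources used here, so p-values measure only the spread between these libraries. The day contrast therefore joins differentiation with the change of medium and the removal of feeders, and these cannot be told apart. In bulk RNA, a change in the mixture of cells and a change in the RNA of each cell cannot be told apart either.

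Oxidative phosphorylation passes electrons from NADH through complex I, or from succinate through complex II, to ubiquinone, on to complex III, to cytochrome c and finally to oxygen at complex IV. Complexes I, III and IV pump protons across the inner mitochondrial membrane, and complex V, the ATP synthase, uses their return to make ATP. Most subunits are encoded in the nucleus and a small group in mitochondrial DNA, and the latter were not analysed here. Pluripotent stem cells are known to use glycolysis, and early differentiation is known to alter mitochondrial use.

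Promoters of these genes are known to carry sites for NRF1, GABPA and other ETS factors, YY1, SP factors and the estrogen-related receptors (ERR). RefSeq promoter windows, which run from 250 bases before the start to 50 after it on GRCm38.p6, matched 74 of the 92 genes in 79 windows. The letters GCGCATGC, a core of the NRF1 site, were present on either strand in 15.2% of member windows, in 2.71% of all 32851 windows and in 4.81% of the 14294 windows of genes tested here. For CCGGAAG, the GABPA/ETS letters, the shares were 24.1%, 8.86% and 15.3%, and for the YY1 letters AAGATGGC they were 11.4%, 2.75% and 3.89%. The SP letters GGGCGG gave 44.3%, 35.7% and 60.3%, with the members between the other 2 sets. The ERR letters TCAAGGTCA gave 2.53%, 0.423% and 0.294%, and the member windows were those of Atp5g3 and Sdhd. Of the 9 member windows with the YY1 letters, 7 were among the 35 of complex I (20%) and 2 among the 16 of complex V (12.5%). Letters of 2 motifs shared a member window most often for GABPA/ETS and SP, in 9 windows.

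The 120 bases just before the start are shown for 3 members whose letters illustrate these motifs and for 2 complex IV isoforms typical of testis whose values are described further on. Capitals mark the motif letters on either strand, and neighbouring matches run together. The stretches are chr4:24897963-24898082 (+ strand) for Ndufaf4 with the NRF1 and SP letters, chr2:119662835-119662954 (- strand) for Ndufaf1 with the GABPA/ETS letters, chr2:73911327-73911446 (- strand) for Atp5g3 with the ERR letters, chr7:4753095-4753214 (- strand) for Cox6b2 with no match in this stretch, and chr5:71548206-71548325 (- strand) for Cox7b2 with the SP letters.
Ndufaf4: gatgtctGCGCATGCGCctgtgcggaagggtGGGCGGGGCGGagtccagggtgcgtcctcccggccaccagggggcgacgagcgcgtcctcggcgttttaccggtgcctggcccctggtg
Ndufaf1: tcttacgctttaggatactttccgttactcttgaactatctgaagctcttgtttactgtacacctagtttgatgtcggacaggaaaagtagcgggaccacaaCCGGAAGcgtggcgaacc
Atp5g3: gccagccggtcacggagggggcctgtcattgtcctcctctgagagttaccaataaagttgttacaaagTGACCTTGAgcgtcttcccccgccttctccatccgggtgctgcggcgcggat
Cox6b2: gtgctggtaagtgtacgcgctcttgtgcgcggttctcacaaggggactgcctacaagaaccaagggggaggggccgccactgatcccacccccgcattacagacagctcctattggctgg
Cox7b2: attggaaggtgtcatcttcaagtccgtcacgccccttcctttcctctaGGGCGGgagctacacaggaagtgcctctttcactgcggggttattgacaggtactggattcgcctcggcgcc

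The deposited values were normalized counts, and their sum ran from 19412659 to 21311513 per library. The members took 1.24% of the sum in both WT day 0 libraries, 1.25% and 1.26% in CTCF-K20R at day 0, 1.102% and 1.103% in WT at day 4, and 1.08% and 1.06% in CTCF-K20R at day 4. The 2 WT libraries of each day differed by less than counting noise, with a mean squared difference of 0.313 times noise at day 0 and 0.277 times at day 4, against 4.00 and 4.36 times for the CTCF-K20R pairs. Such a pair may hold a single library under both labels, so each WT pair was averaged and counted as 1 sample. The spread behind every test came from the CTCF-K20R pairs, and the WT samples were assumed to vary like them. Both WT values are printed below, but a lack of overlap with WT sets 2 CTCF-K20R libraries against 1 WT sample. Between the WT days it sets 1 sample against 1. Ctcf itself read 3971 and 3939 in WT and 4610 and 4408 in CTCF-K20R at day 0, so its transcript was present in both genotypes. At day 0 the 8 pluripotency markers summed to between 136201 and 139396 in every library. At day 4 they summed to 16312 and 16455 in WT EBs and to 36208 and 35467 in CTCF-K20R EBs. Most of each EB sum was Pou5f1, at 12595 and 12696 in WT and 21940 and 21590 in CTCF-K20R. Klf4 went the other way, at 105.79 and 104.5 in WT EBs and 44.272 and 30.784 in CTCF-K20R EBs. The sum thus does not show a higher level of all its markers. By contrast, 8 early mesoderm markers summed to 42930 and 43076 in WT EBs and to 2529 and 2418 in CTCF-K20R EBs. Extraembryonic endoderm markers, 6 in number, summed to 3233 and 3263 in WT EBs and to 293 and 259 in CTCF-K20R EBs. Most of the WT sum was Sox17 at 1881 and 1912 and Gata6 at 1207.4 and 1205.5. Dab2 went the other way, at 133.8 and 133.55 in WT EBs and 262 and 229 in CTCF-K20R EBs. Sox7, Afp and Ttr read at most 10.7 in any EB library, so the sum does not show a fall of all its markers. At day 0, 7 feeder fibroblast markers summed to 526 and 513 in WT and to 193 and 199 in CTCF-K20R. Most of it was Thy1 at 465 and 459 against 104 and 103, while Lum, Postn and Col3a1 were at or near 0. Col1a1 went the other way, at 17.355 and 16.022 in WT and 34.339 and 32.234 in CTCF-K20R. Fbln2 did so too, at 15.074 and 12.59 against 33.157 and 48.717. Col1a2 was lower in CTCF-K20R, like Thy1. The feeder sum thus does not show a fall of all its markers. The genotypes thus differed in marker content on both days, and the part of these differences in the values below was not tested.

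Levels between genes were compared per kb of transcript in WT mESCs, taking the mean of both libraries. The medians were 1200 normalized counts per kb for complex I, 1762 for complex II, 2670 for complex III, 3550 for complex IV and 4024 for complex V, against 242 for the assembly factors, which act during construction and are not part of the finished enzymes. Atp5b, the catalytic beta subunit of the ATP synthase, stood highest at 27712 per kb, followed by the alpha subunit Atp5a1 at 11829. These 2 genes alone held 31.6% of the members' summed value in WT mESCs and 25.4% in WT EBs. Cox4i2 and Cox7a1, tissue-restricted isoforms of complex IV, read 45.5 and 208 per kb, far below Cox4i1 at 9324 per kb.

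**Figure D1:**
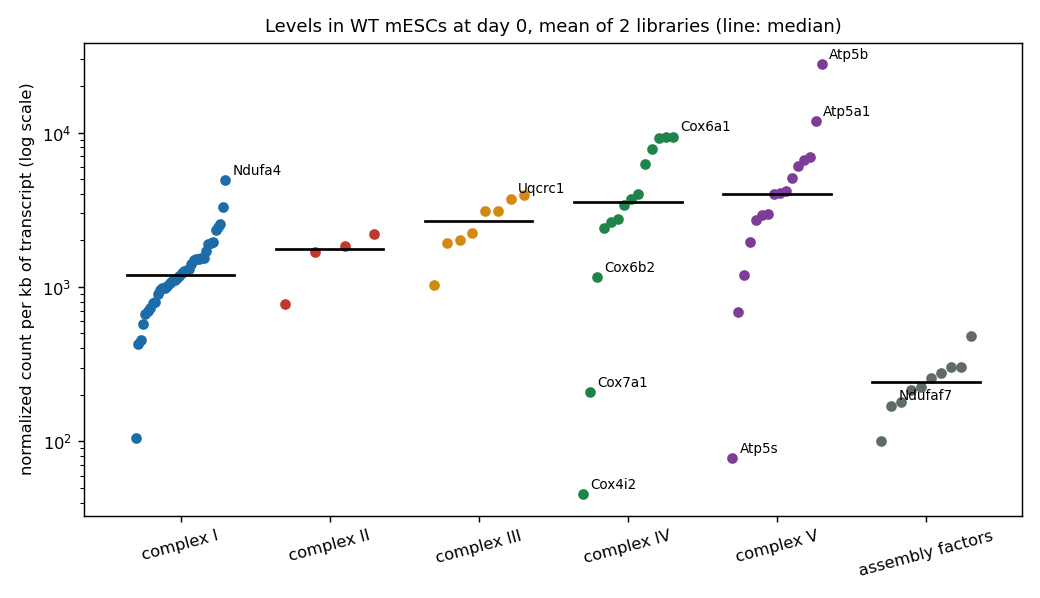
Normalized count per kb of transcript (log axis) in WT mESCs at day 0, each point 1 tested gene as the mean of 2 libraries, grouped by complex, with black lines at the medians. Complex V has the highest median at 4024 and the assembly factors the lowest at 242, and Atp5b stands above all other members at 27712.

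From day 0 to day 4 more members fell than rose in CTCF-K20R cells. Of 90 members tested, 43 fell and 12 rose between CTCF-K20R mESCs and EBs, where 28.6% of all 15767 genes tested fell and 29.9% rose (limma with Benjamini-Hochberg adjustment, adjusted p under 0.05). The median log2 change was -0.16 for the members and 0.01 for all genes. The WT change is given as a value, with no test run. The WT median was -0.10, and 38 of the 43 genes that fell and all 12 that rose in CTCF-K20R moved the same way in WT. A change of more than 2-fold passed the test in 4 members in CTCF-K20R, where 26.1% of all genes did so. In WT, 3 members had more than 2-fold lower values at day 4 and 0 had more than 2-fold higher values, against 16.3% and 18.9% of all genes. Scaling all libraries to the same total turned the WT median of the members to 0.01, with that of all genes at 0.12, so the fall in WT is relative to other genes.

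Complex IV, cytochrome c oxidase, had the largest share of falling members, where 28.6% of all genes tested fell and 29.9% rose in CTCF-K20R. Of its 14 tested members, 11 fell in CTCF-K20R and Cox5b alone rose, with a median log2 change of -0.38 in CTCF-K20R and -0.36 in WT. Cox5a, a ubiquitous subunit, read 4043 and 4083 in WT and 4767 and 4586 in CTCF-K20R at day 0. At day 4 it read 2464 and 2446 in WT and 2712 and 2610 in CTCF-K20R. Its day 4 values lay below its day 0 values in both genotypes, with WT counted as 1 sample per day. The log2 change was -0.81 ± 0.04 (SE) in CTCF-K20R (adjusted p = 4.81e-05) and -0.73 in WT. Cox4i1, the common isoform of subunit 4, changed by -0.21 ± 0.04 in CTCF-K20R (adjusted p = 0.00474) and -0.30 in WT. Cox7a1, the isoform typical of heart and skeletal muscle, read 80.8 and 83.1 in WT mESCs, 131 and 108 in CTCF-K20R mESCs, 24.5 and 25.5 in WT EBs and 35.2 and 35.4 in CTCF-K20R EBs. All day 4 libraries thus lay far below all day 0 libraries, with WT again counted as 1 sample per day. The log2 change was -1.73 ± 0.23 in CTCF-K20R (adjusted p = 0.00173) and -1.67 in WT.

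Complex V and complex III fell in part, where 28.6% of all genes tested fell and 29.9% rose in CTCF-K20R. In complex V, 8 of 16 members fell and 3 rose in CTCF-K20R, and the 3 genes for the same mature c subunit of the membrane ring went different ways. Atp5g1 read 3202 and 3270 in WT mESCs against 1955 and 1957 in WT EBs, and 3358 and 3624 against 2010 and 1984 in CTCF-K20R. Atp5g3 read 4822 and 4843 against 6012 and 6025 in WT, and 4662 and 4735 against 5715 and 5698 in CTCF-K20R. Day 0 and day 4 did not overlap for either gene in CTCF-K20R, and Atp5g1 lay higher at day 0 while Atp5g3 lay higher at day 4. In WT, with 1 averaged sample per day, the directions were the same. The log2 changes in CTCF-K20R were -0.80 ± 0.05 for Atp5g1 (adjusted p = 9.61e-05), 0.22 ± 0.03 for Atp5g2 (adjusted p = 0.00163) and 0.28 ± 0.03 for Atp5g3 (adjusted p = 0.000732), and those in WT were -0.73, 0.20 and 0.32. In complex III, 4 of 8 members fell in CTCF-K20R, among them Uqcrc1, a core subunit, by -0.69 ± 0.03 (adjusted p = 3.77e-05), and Uqcrfs1, the Rieske iron-sulfur protein, rose by 0.15 ± 0.04 (adjusted p = 0.0257).

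Complexes I and II were mixed, where 28.6% of all genes tested fell and 29.9% rose in CTCF-K20R. Of 38 complex I members, 16 fell and 3 rose in CTCF-K20R, with a median of -0.16 in CTCF-K20R and -0.04 in WT. In complex II, Sdha, Sdhb and Sdhc fell and Sdhd rose, and Sdhc had the largest change at -0.51 ± 0.06 (adjusted p = 0.00113). The assembly factors went the other way in their median, 0.16 in CTCF-K20R and 0.20 in WT. Of the 10, 3 rose and 1 fell in CTCF-K20R, the former a share near that of all genes. Ndufaf4, an assembly factor of complex I, read 834 and 805 in WT mESCs and 1537 and 1514 in WT EBs, against 773 and 764 rising to 1187 and 1055 in CTCF-K20R. Its day 4 values were above its day 0 values in both genotypes, and the WT EBs stood highest.

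**Figure D2:**
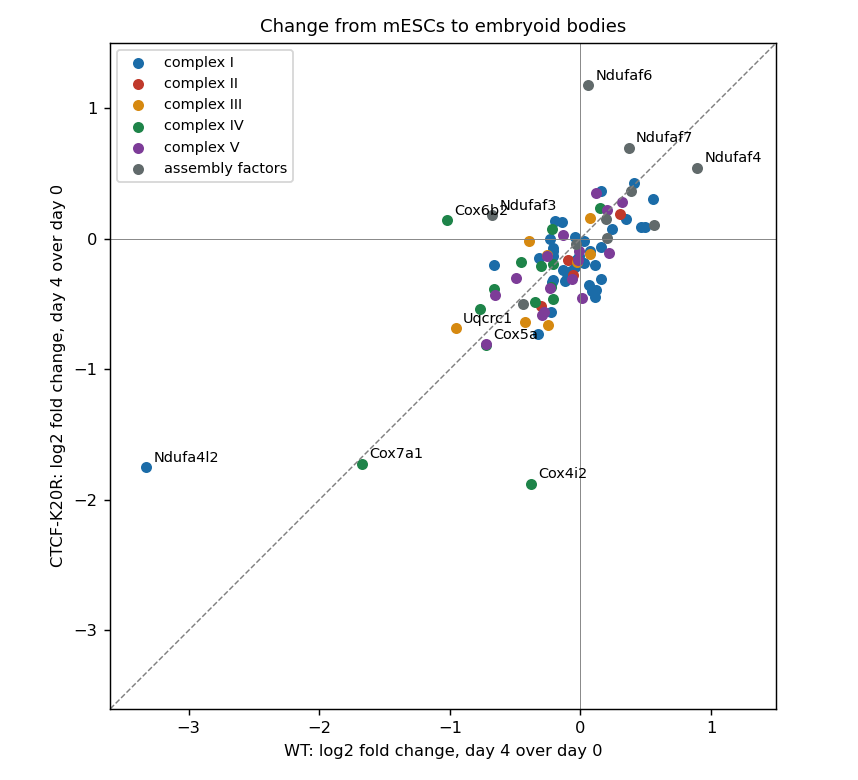
Log2 fold change from day 0 mESCs to day 4 EBs in WT (x axis, 1 averaged sample per day) against CTCF-K20R (y axis, 2 libraries per day), each point 1 tested gene coloured by complex, with the dashed line at equal change. Of 90 points, 50 lie below 0 on both axes, Ndufa4l2 lies at -3.32 in WT and -1.75 in CTCF-K20R, and Cox4i2 and Ndufaf6 lie far from the line.

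At day 4, the genotypes differed at single members and not in the group's middle. In CTCF-K20R EBs, 14 of 90 members were higher and 9 were lower than in WT EBs, against 21.5% and 18.6% of all genes, and 1 member passed with more than 2-fold, against 15.5%. The median log2 difference was 0.00 for the members and 0.01 for all genes. With libraries scaled to the same total, 11 members were higher and 25 lower, with the median of all genes at -0.10, so the balance of directions depends on the scaling. Without CTCF-K20R day 4 replicate 1, 5 were higher and 4 lower, and without replicate 2, 9 were higher and 3 lower.

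The largest difference was at Ndufa4l2 (ENSMUSG00000040280, chr10:127514967-127517154 on GRCm38), a relative of Ndufa4 that is known as a hypoxia-induced gene. It read 983 and 987 in WT mESCs and 975 and 1077 in CTCF-K20R mESCs. In EBs it read 99.1 and 95.8 in WT and 319 and 289 in CTCF-K20R. The genotypes overlapped at day 0 and stood apart at day 4, where CTCF-K20R was higher by a log2 of 1.63 ± 0.12 (adjusted p = 0.000458), a call that held in every alternative run. The fall with time was -3.32 in WT and -1.75 ± 0.10 in CTCF-K20R, and the difference between the falls was 1.57 ± 0.17 (adjusted p = 0.00297). Its exons overlap those of Shmt2, a serine hydroxymethyltransferase on the opposite strand, and strand use in the quantification is not stated. Shmt2 read 3269 and 3292 in WT EBs and 2970 and 2977 in CTCF-K20R EBs, a difference of -0.14 (adjusted p = 0.0414) in the opposite direction. With time, however, Shmt2 fell as Ndufa4l2 did, by -1.37 in WT and -1.50 in CTCF-K20R (adjusted p = 4.22e-06). The part of the overlap in the Ndufa4l2 values was not tested. Ndufa4, which is counted in complex I by its name but is a subunit of complex IV, was lower in CTCF-K20R EBs by -0.20 ± 0.04 (adjusted p = 0.0183).

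With Ndufa4l2 and Ndufa4 included, 6 of 38 complex I members were higher at day 4 and 8 were lower. Among all genes tested, 21.5% were higher and 18.6% lower. Ndufb4, an accessory subunit of the membrane arm, read 1001 and 1000 in WT EBs and 629 and 563 in CTCF-K20R EBs, lower by -0.75 ± 0.10 (adjusted p = 0.00362). Ndufb7, another accessory subunit, read 1044 and 1069 in WT and 1544 and 1629 in CTCF-K20R, higher by 0.59 ± 0.07 (adjusted p = 0.00196). Neither gene's libraries overlapped between genotypes, and both calls held in every alternative. Ndufs1, the largest iron-sulfur subunit of the electron input arm, differed by 0.25 ± 0.06 (adjusted p = 0.0267). Ndufv1, the flavin-binding subunit, had a difference of -0.07 ± 0.06 (adjusted p = 0.434).

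In complex II, 0 of 4 members passed at day 4 by limma, with 0 at an unadjusted p under 0.05. Sdha had -0.18 ± 0.07 (adjusted p = 0.114) and Sdhb -0.07 ± 0.05 (adjusted p = 0.355). In complex III, Uqcrq and Uqcrc1 were higher. Uqcrq, a small subunit that binds ubiquinone, read 1204 and 1181 in WT EBs and 1654 and 1649 in CTCF-K20R EBs, near the 1567 to 1686 of the day 0 libraries. The WT EBs were the low group, and the difference was 0.47 ± 0.06 (adjusted p = 0.00213). Uqcrc1 read 3161 and 3176 in WT EBs and 3825 and 3926 in CTCF-K20R EBs, without overlap, a difference of 0.29 ± 0.04 (adjusted p = 0.00347).

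In complex IV, 3 of 14 members were higher at day 4 and 0 were lower by limma, with 0 lower at an unadjusted p under 0.05. Of all genes, 21.5% were higher and 18.6% lower, so the share of higher members was near that of all genes. Cox7a2l, a factor that links complexes III and IV into supercomplexes, read 3447 and 3407 in WT EBs and 4522 and 4425 in CTCF-K20R EBs, a difference of 0.38 ± 0.05 (adjusted p = 0.00354). Cox7c was higher by 0.36 ± 0.05 (adjusted p = 0.00321) and Cox6c by 0.25 ± 0.05 (adjusted p = 0.0104), and Cox4i1 had a difference of 0.14 ± 0.05 that did not pass (adjusted p = 0.0605). In complex V, Atp5b alone was higher, at 33492 and 33914 in WT EBs and 39836 and 38488 in CTCF-K20R EBs, by 0.22 ± 0.03 (adjusted p = 0.00446). Atp5a1, its partner in the catalytic head, read 20758 and 20674 against 21843 and 21611, with 0.07 ± 0.03 (adjusted p = 0.0854). Of the assembly factors, Ndufaf7, a methyltransferase needed for building complex I, was higher by 0.68 ± 0.13 (adjusted p = 0.0105), Ndufaf3 was higher by 0.60 ± 0.14 (adjusted p = 0.0184), and Ndufaf4 was lower by -0.45 ± 0.09 (adjusted p = 0.0137).

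The remaining extremes of each complex at day 4 did not pass. Ndufa5, an accessory subunit of complex I, read 611 and 603 in WT EBs and 446 and 459 in CTCF-K20R EBs, with -0.42 ± 0.17 (adjusted p = 0.0992), and its CTCF-K20R libraries at day 0 read 662 and 507. The EB libraries did not overlap. Atp5l, a membrane subunit of the ATP synthase, had 0.16 ± 0.06 (adjusted p = 0.077), Atp5h, a subunit of its stator stalk, had -0.09 ± 0.07, and Atp5s, also called coupling factor B, had -0.35 ± 0.21. In complex III, Uqcrb had -0.16 ± 0.07 and Uqcr10 -0.14 ± 0.09, and in complex IV, Cox6b1 had -0.11 ± 0.06 and Cox7b -0.09 ± 0.05. Sdhd and Sdhc, the membrane anchors of complex II, had -0.02 ± 0.05 and 0.05 ± 0.08, and Sdhaf1, an assembly factor of complex II, had -0.32 ± 0.23.

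**Figure D3:**
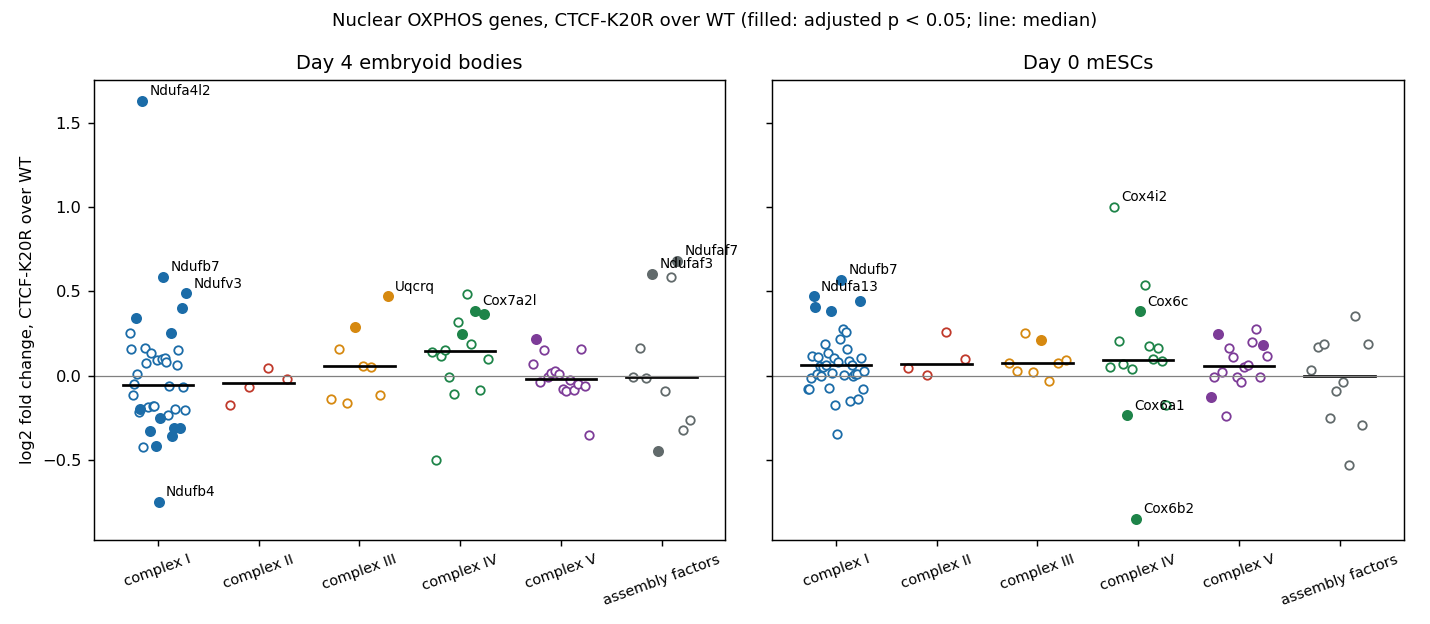
Log2 fold change of CTCF-K20R over WT at day 4 (left) and day 0 (right), each point 1 tested gene grouped by complex, filled where the limma adjusted p is under 0.05, with black lines at the medians. At day 4, Ndufa4l2 at 1.63 is the only filled point beyond 1, and at day 0 Cox6b2 lies lowest at -0.85.

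At day 0, 9 members were higher and 3 lower in CTCF-K20R mESCs, against 7.83% and 7.57% of all genes, and 0 passed with more than 2-fold by limma, against 3.79%, with 1 at an unadjusted p under 0.05. The median difference was 0.06 for the members and -0.01 for all genes. These calls rested on all libraries: 25 of 90 members had an unadjusted p under 0.05 and 0 passed after adjustment when only the day 0 libraries were fitted. Without CTCF-K20R day 0 replicate 1, 1 member passed, and without any other single CTCF-K20R library, 0 passed, with 20 to 25 at an unadjusted p under 0.05.

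The lowest at day 0 was Cox6b2 (ENSMUSG00000051811, chr7:4751792-4753094 on GRCm38), the isoform of subunit 6b typical of testis. It read 678 and 674 in WT mESCs and 377 and 373 in CTCF-K20R mESCs, a difference of -0.85 ± 0.14 (adjusted p = 0.0162). In EBs it read 329 and 335 in WT and 450 and 381 in CTCF-K20R, where the difference was 0.32 ± 0.14 (adjusted p = 0.118). CTCF-K20R was thus the lower genotype at day 0 without overlap, and WT fell with time by -1.02 while CTCF-K20R changed by 0.14 ± 0.11 (adjusted p = 0.315). The common isoform Cox6b1 read 2459 and 2493 in WT mESCs and 2495 and 2584 in CTCF-K20R mESCs, with a difference of 0.04 ± 0.06 (adjusted p = 0.705).

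Cox7b2 (ENSMUSG00000049387, chr5:71442824-71548205 on GRCm38), another isoform typical of testis, was under the limit for testing, a mean of 10 normalized counts over all libraries. It read 0 and 0.957 in WT mESCs against 13.7 and 16.8 in CTCF-K20R mESCs, and 0.961 and 0.812 in WT EBs against 11.5 and 3.26 in CTCF-K20R EBs. Against a floor of 3 reads, or 3.40 normalized counts in WT mESCs, CTCF-K20R mESCs were at least 4.48-fold higher, while in EBs 1 of the 2 CTCF-K20R libraries lay under its floor. Floors cover counting error only. Cox6a2, the muscle isoform of subunit 6a and the other untested member, read between 0 and 4.31 in all libraries. Of genes outside the members with testis-type isoforms, Cyct, the testis cytochrome c, read 0 and 0.825 in WT EBs and 12.6 and 9.83 in CTCF-K20R EBs. Slc25a31, a germ cell ADP/ATP carrier, read 1.05 and 0.886 against 30.6 and 26.8. In mESCs, Cyct read 16.0 and 15.3 in WT and 54.2 and 39.0 in CTCF-K20R. Slc25a31 read 9.98 and 12.0 against 29.6 and 20.5 there. Neither day 0 difference passed by limma (adjusted p = 0.0967 for Cyct and 0.177 for Slc25a31). Beside these, 4 markers of 2-cell-like cells summed to 22.1 and 20.3 in WT mESCs, 191 and 248 in CTCF-K20R mESCs, 9.7 and 10.4 in WT EBs and 406 and 332 in CTCF-K20R EBs, and their part in these values was not tested.

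Cox4i2, the isoform of subunit 4 known from lung and from low oxygen, read 36.4 and 30.4 in WT mESCs and 62.8 and 73.2 in CTCF-K20R mESCs, then 25.9 and 25.1 in WT EBs and 17.2 and 18.3 in CTCF-K20R EBs. CTCF-K20R was the higher genotype at day 0 and the lower at day 4, with no overlap on either day, but neither difference passed, at 1.00 ± 0.34 (adjusted p = 0.11) and -0.50 ± 0.34 (adjusted p = 0.292). Its fall in CTCF-K20R was -1.88 ± 0.28 (adjusted p = 0.0024). For the remaining pairs, Cox6a1 was lower in CTCF-K20R mESCs by -0.24 ± 0.05 (adjusted p = 0.0424), and Cox7a2, Cox7b and Cox8a passed in neither genotype comparison.

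**Figure D4:**
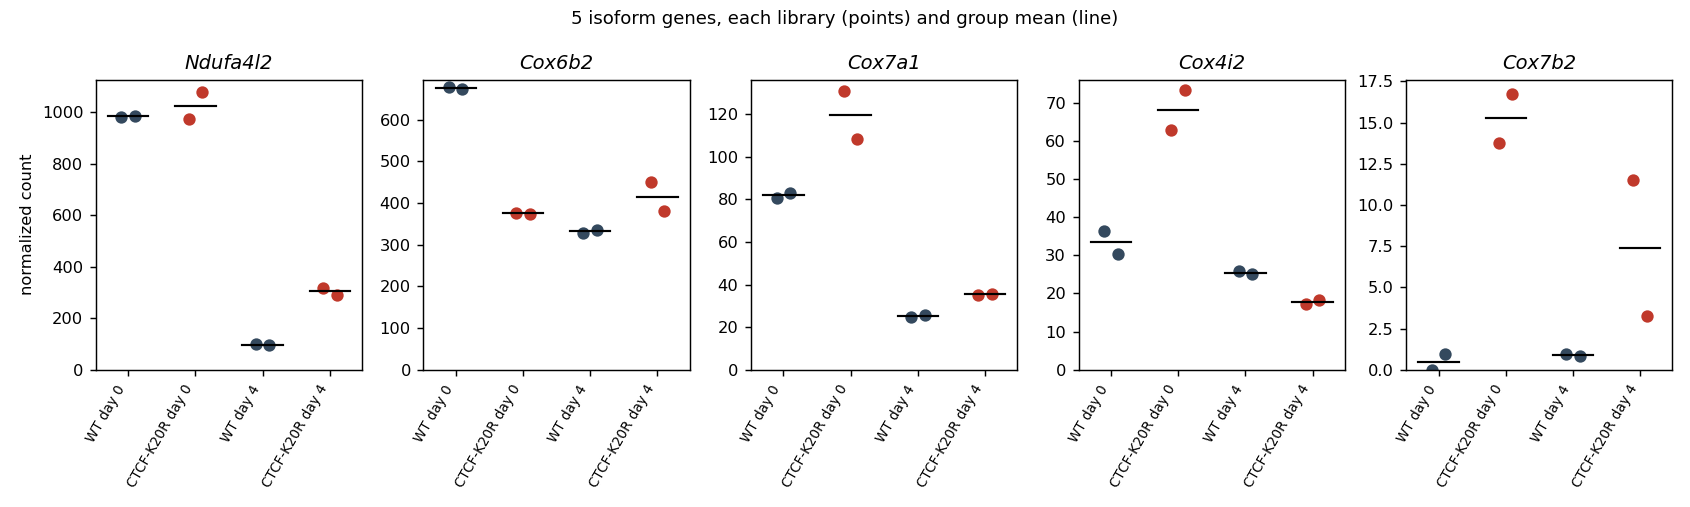
Normalized count (y axis from 0, own scale per panel) of Ndufa4l2, Cox6b2, Cox7a1, Cox4i2 and Cox7b2 in each of the 8 libraries by genotype and day, WT in dark blue and CTCF-K20R in red, with lines at group means. Ndufa4l2 separates the genotypes at day 4 alone, and Cox6b2 is highest in WT mESCs at 678 and 674.

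The other day 0 calls were small. Ndufb7 was higher by 0.57 ± 0.07 (adjusted p = 0.007), Ndufa13, a subunit also known as GRIM-19, by 0.47 ± 0.08 (adjusted p = 0.0217), Ndufs8, a ferredoxin-like core subunit, by 0.44 ± 0.08 (adjusted p = 0.019) and Cox6c by 0.38 ± 0.05 (adjusted p = 0.0074). These 4 genes were also higher at day 4, by 0.59, 0.34, 0.40 and 0.25, and each comparison used the libraries of its own day with 1 shared estimate of the spread. Ndufb7 read 807 and 782 in WT mESCs and 1173 and 1186 in CTCF-K20R mESCs, and Ndufa13 read 873 and 864 against 1242 and 1165, without overlap. Ndufa2, Ndufb10, Uqcrc2, Atp5c1 and Atp5o were higher at day 0 by 0.18 to 0.41, and Atp5a1 was lower by -0.13 ± 0.03 (adjusted p = 0.0313). Among the highest and lowest of each complex that did not pass at day 0, Atp5k had 0.27 ± 0.14, Atp5e -0.24 ± 0.07, Sdhc 0.26 ± 0.08, Uqcrb 0.25 ± 0.07, Uqcrfs1 -0.03 ± 0.05, Ndufb4 -0.35 ± 0.10 and Ndufaf6 -0.53 ± 0.22.

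Ndufb7 and Ndufa13 lie on chromosome 8 among genes that moved alike. Neighbours were the 10 closest tested genes on each side, with members left out, whatever their distance. The 20 around Ndufb7, between 80980733 and 83970197, had a median difference of 0.65 at day 0 and 0.62 at day 4, and all 20 were positive at day 0. Those around Ndufa13, between 69706332 and 70147319, had medians of 0.54 and 0.55. They were the only 2 of 90 members whose neighbours' medians exceeded 0.5 on both days. Cox4i1, on the same chromosome, had neighbours with -0.13 at day 0 and -0.08 at day 4. Ndufa9 had neighbours at -0.58 at day 4 and was itself lower by -0.33 ± 0.06 (adjusted p = 0.01), whereas Ndufa4l2 had neighbours at -0.18. The part of neighbouring genes in these values was not tested.

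**Figure D5:**
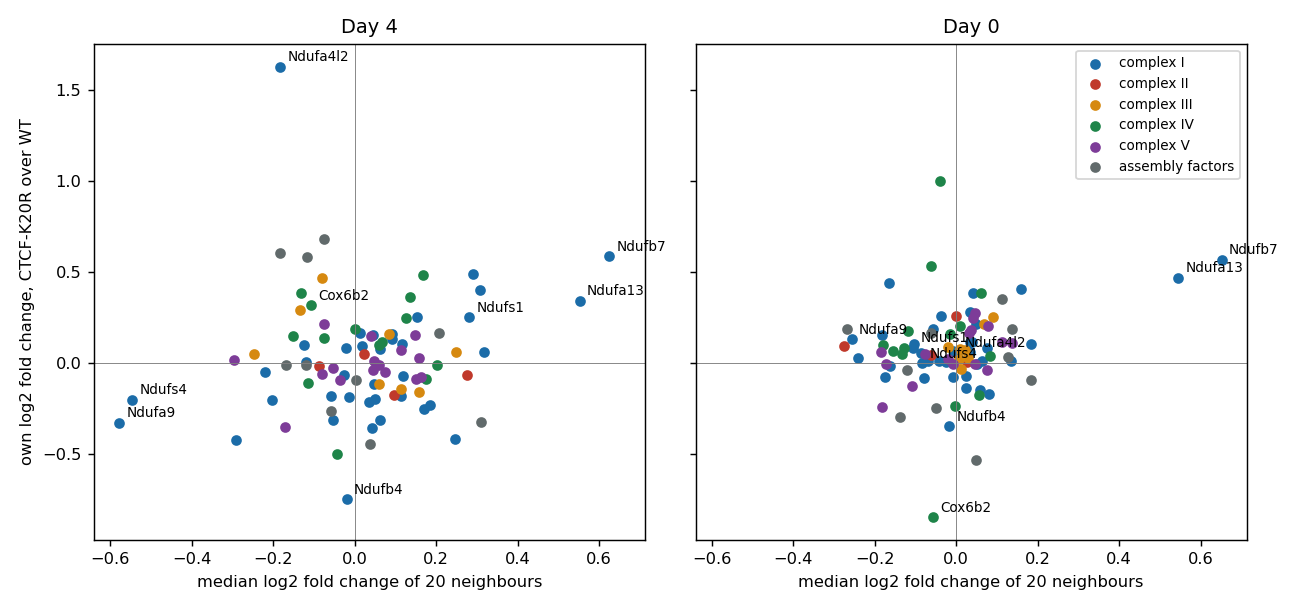
Own log2 fold change of CTCF-K20R over WT (y axis) against the median of the neighbours, up to 10 tested genes on each side (x axis), at day 4 (left) and day 0 (right), each point 1 tested member coloured by complex. Ndufb7 and Ndufa13 sit at the right on both days, with neighbour medians of 0.54 to 0.65, and Ndufa4l2 stands at 1.63 with neighbours at -0.18.

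The change of the genotype difference between days, tested as an interaction, was positive for 11 members and negative for 10, against 14.7% and 12% of all genes, and 3 passed with more than 2-fold, against 12.9%. Those 3 were Ndufa4l2 at 1.57, Cox6b2 at 1.17 ± 0.19 (adjusted p = 0.0104) and Ndufaf6 at 1.11 ± 0.31 (adjusted p = 0.0493). Ndufaf6, a complex I assembly factor, read 291 and 311 in WT mESCs, 175 and 247 in CTCF-K20R mESCs, 313 and 316 in WT EBs and 464 and 478 in CTCF-K20R EBs. The CTCF-K20R libraries lay below WT at day 0 and above it at day 4. The median interaction was -0.10 for the members and 0.02 for all genes. With libraries scaled to the same total, 4 were positive and 14 negative. Without CTCF-K20R day 4 replicate 1, 1 member passed, and without replicate 2, 2 passed, while leaving out CTCF-K20R day 0 replicate 1 or 2 left 4 or 5.

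Other mitochondrial gene lists were read beside the members. Of 21 tested regulators of mitochondrial genes, 7 were higher and 0 lower in CTCF-K20R EBs by limma, with 1 lower at an unadjusted p under 0.05, beside 21.5% and 18.6% of all genes. They included Esrrb, an estrogen-related receptor that is also 1 of the 8 pluripotency markers above, at 71.5 and 73.6 in WT EBs and 441 and 480 in CTCF-K20R EBs, and Polg, the mitochondrial DNA polymerase, at 2464 and 2460 against 6197 and 6319. The differences were 2.65 ± 0.07 (adjusted p = 2.53e-05) and 1.35 ± 0.04 (adjusted p = 4.17e-05). Gabpa, whose product binds the ETS letters above, was higher by 0.41 ± 0.07 (adjusted p = 0.00858) and Nrf1 by 0.29 ± 0.07 (adjusted p = 0.0266), although the exons of Gabpa overlap those of Atp5j on the opposite strand. Tfam, the packaging factor of mitochondrial DNA, had -0.14 ± 0.11 (adjusted p = 0.334), Esrra 0.38 ± 0.19 (adjusted p = 0.16) and Ppargc1b -0.16 ± 0.33 (adjusted p = 0.734), and Ppargc1a was under the limit for testing.

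The lists that follow are read against the same 21.5% higher and 18.6% lower of all genes at day 4. Of 77 mitochondrial ribosome genes, 18 were higher and 6 lower, the former a share near that of all genes, and Mrpl52, Mrpl57 and Mrps6 were lower by more than 2-fold, at -1.17, -1.37 and -1.15. Of 13 TCA cycle enzymes, 5 were higher and 3 lower, with Idh3b, a subunit of isocitrate dehydrogenase, at 0.67 ± 0.05 (adjusted p = 0.000295) and Fh1, fumarase, at -0.49 (adjusted p = 0.00386). Of 40 assembly factors outside the naming rule, 5 were higher and 4 lower. Of 14 electron carriers and their makers, 2 were higher and 3 lower, among them Cyct, at least 3.89-fold higher against the floor of 3 reads (adjusted p = 0.00502), and Cycs, somatic cytochrome c, had -0.09 ± 0.09 (adjusted p = 0.459). Of 5 tested carriers and uncoupling proteins, 3 were higher and 1 lower, led by Slc25a31, at least 9.97-fold higher against that floor (adjusted p = 0.00206). The medians of these 6 lists at day 4 ran from -0.08 to 0.32, beside 0.01 for all genes.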

How the data were processed

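The deposited table gives a normalized signal per gene and library. Per the labels and the study's methods, the authors trimmed reads with Trim Galore, quantified transcripts with Salmon, summed them to genes and normalized with DESeq2 (mm10), so values are normalized counts, not whole reads. Most values were not whole multiples of 1 read, so raw depth was not recovered. The value of 1 read was estimated from the most frequent low value, at 0.811 to 1.14 normalized counts per library, and sets the floors and the counting noise.

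The members and gene lists were chosen with earlier results of these data known. A pseudocount of 1 was added, log2 was taken, and limma 3.58.1 (R 4.3.3) was fitted to genes with a mean of at least 10, with Benjamini-Hochberg adjustment over 15767 genes (adjusted p under 0.05). Fold changes on this scale understate changes of low genes. WT pairs were averaged, which left 6 samples, 2 residual degrees of freedom and 3.51 prior ones. The fit was first tested on simulated data. Transcript lengths, positions and overlaps came from GENCODE for GRCm38, using the principal transcript, and promoters from RefSeq. Genes were named by a fixed rule: calls beyond 2-fold, the 2 highest and 2 lowest day 4 differences per complex among means of at least 100, the highest and lowest at day 0, a core gene set, isoform pairs and untested members. Other genes named were chosen after their values were seen.

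Correlations of same-numbered library deviations between groups lay between -0.03 and 0.03. The WT pairs differ by less than counting noise, so values that involve WT cannot show pairing. The value between the CTCF-K20R days was -0.01, so no pairing by number was seen in CTCF-K20R. Other settings tried covered the pseudocount, low-value filter, scaling, length and GC, WT averaging, a replicate block and leaving out each library. Some results are not reported here.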

Additional observations from a re-analysis of the deposited data

Results flagged for a closer look

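The genotype difference changed between day 0 and day 4 in 21 members by limma's test of the difference (adjusted p under 0.05), with values on the log2 scale as day 4 minus day 0. The change was positive in 11 members (12.2%) and negative in 10 (11.1%), beside 14.7% and 12% of all genes. It was 1.57 for Ndufa4l2, 1.17 for Cox6b2, 1.11 for Ndufaf6, 0.85 for Ndufaf3, 0.46 for Ndufv3, 0.38 for Uqcrq, 0.29 for Cox7a2l, 0.28 for Cox7c, 0.27 for Uqcrc1, 0.22 for Atp5b and 0.19 for Atp5a1.

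It was negative in 10 members, at -0.56 for Ndufb10, -0.46 for Ndufa9, -0.45 for Sdhaf2, -0.41 for Uqcrb, -0.38 for Ndufs3, -0.34 for Ndufb5, -0.31 for Ndufa4, -0.29 for Atp5j2, -0.28 for Atp5c1 and -0.24 for Atp5o. In CTCF-K20R mESCs Ndufb10 read 1121 and 1061 against 837 and 834 in WT, and in EBs 779 and 820 against 904 and 905. Ndufa4l2 alone kept its call in all 16 alternatives. No group had enough libraries to look for a library far from the rest.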

How the results depend on the processing

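The calls rest on 2 CTCF-K20R libraries per day. Of 23 day 4 calls, 6 held in every alternative run (among them Ndufa4l2, Ndufb4, Ndufb7, Uqcrc1 and Uqcrq), as did 37 of 55 calls between days in CTCF-K20R, 0 of 12 at day 0 and 1 of 21 for the interaction, and every called member kept its direction. Of 276 recomputed counts and medians, 213 stayed within their limits. The causes of the changes below were not tested.

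With all 8 libraries as separate samples, 31 members were higher and 29 lower at day 4, 36 and 10 at day 0 with 1 beyond 2-fold, and 22 and 34 for the interaction. With the replicate block added to that fit, these were 31 and 26, 29 and 10 with 1 beyond 2-fold, and 20 and 34. The replicate block on 6 samples gave 14 higher and 10 lower at day 4, and moved no count by more than 1.5 times. Without the filter on low values, day 0 had 5 higher and 1 lower and the interaction 6 positive. Quantile normalization gave 15 lower at day 4, 7 positive for the interaction, and medians of -0.035 at day 4, -0.082 between days in CTCF-K20R and -0.042 in WT. Scaling to the same total gave 25 lower at day 4, 4 positive for the interaction, and medians of -0.107 at day 4, 0.041 at day 0, -0.187 for the interaction and, turned in sign, 0.011 between days in WT. With length and GC trends removed, medians were -0.03 at day 4, 0.023 at day 0, -0.092 for the interaction and -0.078 between days in WT. With only the day's libraries, day 0 had 0 higher and 0 lower by limma, with 25 members at an unadjusted p under 0.05.

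Leaving out each library in turn gave 5 to 14 higher and 3 to 9 lower at day 4, 0 to 10 higher and 0 to 3 lower at day 0, and 1 to 11 positive, 0 to 11 negative and 1 to 3 beyond 2-fold for the interaction. Between days in CTCF-K20R it gave 9 to 12 higher and 32 to 43 lower. The medians ran from -0.001 to 0.012 at day 4, 0.059 to 0.081 at day 0, -0.178 to -0.151 between days in CTCF-K20R, -0.114 to -0.071 for the interaction and -0.104 to -0.093 in WT. A genotype left with 1 library was assumed to vary like the other. Depth limits Cox7b2 and Cox6a2, whose values lie near the floor of 3 reads.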
